A study of Mus musculus with 4 samples.

Results

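The 3 formyl peptide receptor rows Fpr1, Fpr2 and Fpr3, together with Anxa1, which encodes annexin A1, were followed through 4 mouse RNA libraries. The members were chosen by gene symbol, with the KO against WT contrast of these libraries already known. They are 4 of 38087 rows of the gene table, and all 4 were among the 20695 rows with enough reads to be tested. The KO against WT values of the 4 genes are therefore given as a description, with no test.

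The libraries were made from ribosome-depleted RNA of cervical tissue from C57BL/6 mice at postnatal week 20. WT replicates 1 and 2 are labelled wild type and cervical lymph node. Becn1-M-KO replicates 1 and 2 (here KO) come from mice with a myeloid deletion of Becn1, which encodes the autophagy protein Beclin 1, and the series title calls the KO tissue B cell lymphoma, so effects of the genotype and of the tumour cannot be told apart. Which promoter drives the deletion is not given in the sources used here. Separate animals are not named in the labels, so SE and p-values cover only the spread among these libraries, which may be technical.

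Formyl peptide receptors are G protein-coupled receptors of neutrophils, monocytes and macrophages. Fpr1 responds to N-formylated peptides from bacteria and mitochondria and drives chemotaxis. Fpr2 binds a wide range of ligands, among them formylated peptides, serum amyloid A, cathelicidin peptide, lipoxin and annexin A1. Annexin A1 is a calcium-dependent phospholipid-binding protein, induced by glucocorticoids, abundant in myeloid and epithelial cells, and known for limiting neutrophil recruitment and aiding resolution of inflammation through these receptors. Mice carry an enlarged receptor cluster on chromosome 17, in which several related genes are expressed in vomeronasal neurons.

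Library totals ranged from 15604247 to 20067004 reads. WT replicate 1 stands apart: its B cell marker list summed to 5.58 CPM (read counts scaled to a common library size) of the library total and its T cell list to 7.43. In the other 3 libraries the B cell list lay between 1519 and 2040 CPM and the T cell list between 544 and 688. Defining lymphocyte markers were thus nearly absent from 1 library labelled lymph node, and results are given with and without it. Salivary gland and other epithelial markers were high in both WT libraries. They summed to 4304 and 18947 CPM of the library total, against 14.3 and 51.2 in KO. Becn1 stood at 54.8 and 63.4 CPM in WT against 49.5 and 53.3 CPM in KO (log2 fold change −0.20, SE 0.21, adjusted p = 0.557 by edgeR), a whole-tissue level that does not check a deletion in myeloid cells. Xist reads were 2088 and 5314 (WT) against 3 and 34 (KO), and those of the Y-linked Eif2s3y 1 and 6 against 767 and 1083, so sex and genotype cannot be told apart either. From here on CPM are scaled with TMM factors (trimmed mean of M values, which adjust for a few dominant genes) except where the library total is named. Fold changes are KO minus WT on the log2 scale, from edgeR's quasi-likelihood fit over all tested genes.

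Fpr2, on chromosome 17 from 17887824 to 17893952 (mm10, plus strand), was counted 4 and 18 times in the WT libraries and 1070 and 1476 times in the KO libraries. Scaled, this was 0.483 and 0.859 CPM for WT against 53.8 and 56.9 CPM for KO, or 0.671 ± 0.266 against 55.3 ± 2.16 (SD, n = 2 each). Both KO libraries lay far above both WT libraries and close to each other. The log2 fold change was 6.27 (SE 0.36). On summed reads the ratio was 73.8, with a 95% counting interval of 48.7 to 118 that covers counting error only. Against WT replicate 2 alone the log2 fold change was 6.01, and against WT replicate 1 alone it was 6.81. In bulk tissue, more cells carrying a receptor and more RNA per cell cannot be told apart.

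Fpr1, the high-affinity receptor for formylated peptides, lies beside Fpr2 on the opposite strand, from 17876471 to 17883940. Its reads were 3 and 1 in WT and 66 and 87 in KO. The WT counts are no higher than the 3 reads that a count of 0 allows in 1 library. Levels were 0.362 and 0.0477 CPM in WT against 3.32 and 3.35 CPM in KO, so the groups did not overlap. On summed reads the ratio was 24.4, with a counting interval from 9.34 to 90.7. The fitted log2 fold change of 4.38 (SE 0.84) rests on those few WT reads: it was 5.98 against WT replicate 2 and 3.16 against WT replicate 1.

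Fpr2 was the more abundant of this pair in KO by a near-constant factor. In KO, Fpr2 reads outnumbered Fpr1 reads by 16.2-fold and 17.0-fold. Per base of annotated exon the factors were 16.6 and 17.3, since the exons of Fpr1 and Fpr2 cover 1324 and 1296 bases in the GENCODE vM21 annotation. Per kilobase of exon, Fpr2 stood at 41.5 and 43.9 CPM in KO, Anxa1 at 8.12 and 6.39, and Fpr1 at 2.51 and 2.53. In WT the order per kilobase of exon was different: Anxa1 stood at 37.2 and 16.8 CPM, Fpr2 at 0.373 and 0.662, and Fpr1 at 0.274 and 0.0360. Reads were counted over whole gene spans, so these per-exon levels include any intronic reads. Coverage of Fpr2 was nonetheless concentrated: the authors' table lists 1109 and 1146 bases above its low-coverage limit in KO, of 6129 in the row, and 0 in both WT libraries. For Fpr1 the table lists 0 such bases in all 4 libraries.

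**Figure D1:**
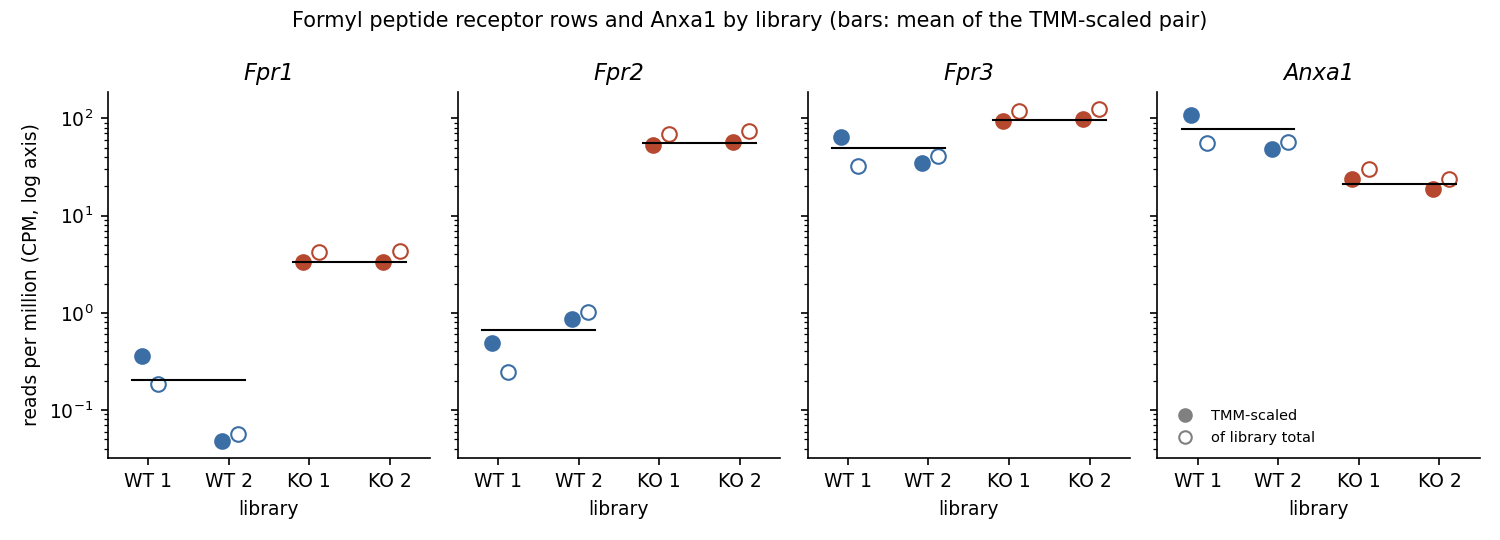
CPM (log axis) of the 3 receptor rows and Anxa1 in each library, TMM-scaled (filled) and of the library total (open), with bars at the mean of the TMM-scaled pair of each group. Fpr1 and Fpr2 are higher and Anxa1 is lower in both KO libraries on both scales, and WT 1 is the library that moves most between scales.

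The Fpr1 and Fpr2 transcription starts face away from each other, 3884 bases apart. Because these neighbours were both higher in KO, the 250 bases before each start are shown, with those before the RefSeq start of Fpr3, whose own reads were not separable, for comparison. The sequences are from RefSeq (GRCm38.p6) and read 5′ to 3′ on the gene's strand. Capitals mark matches, on either strand, to GAGGAA, the core bound by the myeloid factor PU.1, and to TTNNGNAA, a loose form of the C/EBP site.
Fpr1: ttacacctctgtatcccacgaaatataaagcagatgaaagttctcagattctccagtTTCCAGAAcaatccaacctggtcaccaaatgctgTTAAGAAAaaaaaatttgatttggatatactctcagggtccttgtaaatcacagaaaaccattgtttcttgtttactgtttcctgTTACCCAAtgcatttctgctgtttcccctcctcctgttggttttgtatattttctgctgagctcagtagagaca
Fpr2: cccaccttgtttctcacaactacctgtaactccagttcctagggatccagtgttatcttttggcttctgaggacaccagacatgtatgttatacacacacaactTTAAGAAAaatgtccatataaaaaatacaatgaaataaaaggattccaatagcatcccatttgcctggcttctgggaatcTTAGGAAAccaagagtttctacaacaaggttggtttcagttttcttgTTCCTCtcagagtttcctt
Fpr3: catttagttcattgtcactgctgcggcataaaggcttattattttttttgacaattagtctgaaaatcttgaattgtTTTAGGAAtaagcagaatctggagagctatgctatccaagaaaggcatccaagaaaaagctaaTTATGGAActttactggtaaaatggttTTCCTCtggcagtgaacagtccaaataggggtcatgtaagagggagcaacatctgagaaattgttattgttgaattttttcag
They lie at chr17:17883940-17884189 (minus strand), chr17:17887574-17887823 (plus) and chr17:17970208-17970457 (plus). The longer GENCODE transcript of Fpr3 starts at 17887852, inside the Fpr2 first exon, and the Fpr3 window lies in its intron. That window comes before a start only for the shorter transcript, at 17970458, so it may not be a promoter. GAGGAA or its reverse complement was found 0 times before Fpr1, 1 time before Fpr2 and 1 time before Fpr3, and 23.3% of 32851 windows of the same length hold it. TTNNGNAA was found 3, 2 and 2 times, and 36.8% of the windows hold it. The AP-1 site TGANTCA, held by 6.75% of the windows, was found in none of the 3. The window before Anxa1, a gene lower in KO, held GAGGAA 1 time, TTNNGNAA 1 time and TGANTCA 0 times. Such matches are letters only and do not show binding.

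The Fpr3 row spans 83826 bases, from 17887852 to 17971677 on the plus strand, and its reads are largely those of other rows. In the GENCODE annotation its longer transcript begins inside the Fpr2 first exon, sharing 48 exonic bases with Fpr2, and splices to the coding exon from 17970458 to 17971677. RefSeq lists only that last exon, 1220 bases or 1.46% of the row. GENCODE also places the pseudogenes Gm7531 and Gm5966 between them. All but 28 bases of Fpr2 lie inside the Fpr3 row, as does Gm7535, a processed pseudogene on the minus strand. The table counts a read for every row it falls in: of 532 nested row pairs on the same strand and 1076 on opposite strands with at least 10 reads in each library, the outer row had at least as many reads as the inner row in all 532 and all 1076. Shared reads of Fpr2 and Fpr3 were thus counted for both.

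As deposited, the Fpr3 row held 529 and 726 WT reads against 1876 and 2531 KO reads, or 63.9 and 34.6 CPM against 94.4 and 97.5 CPM. The groups did not overlap, and the log2 fold change was 0.96 (SE 0.37). Fpr2 reads equalled 0.756% and 2.48% of the row's reads in WT but 57.0% and 58.3% in KO. Gm7535 was counted 289 and 407 times in WT against 388 and 455 in KO, equal to 54.6% and 56.1% of the row in WT but 20.7% and 17.98% in KO. Taking both away left 236 and 301 WT reads against 418 and 600 KO reads. This rest stood at 28.5 and 14.4 CPM in WT against 21.0 and 23.1 CPM in KO, so the groups overlapped. Its log2 fold change was 0.049 (SE 0.39), against 0.96 for the row as deposited and 1.60 for the sum of the Fpr2 and Fpr3 rows. Of the library total the rest was 14.6 and 16.8 CPM in WT against 26.8 and 29.9 CPM in KO, a scale on which the groups did not overlap.

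Where the remaining reads lie is partly visible in the table's coverage columns. Outside Fpr2 and Gm7535 the Fpr3 row held 637 and 578 bases above the low-coverage limit in WT and 693 and 789 in KO. The GENCODE gene model of Gm7535 runs 869 bases past the Gm7535 row, whose mean coverage was 41.7, 49.1, 50.2 and 53.4 in WT 1, WT 2, KO 1 and KO 2. The Fpr3 coding exon is 1220 bases long. The table does not give the position of the covered bases, so reads of Fpr3 itself could not be separated from those of the pseudogene, and no level of Fpr3 mRNA is given.

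**Figure D2:**
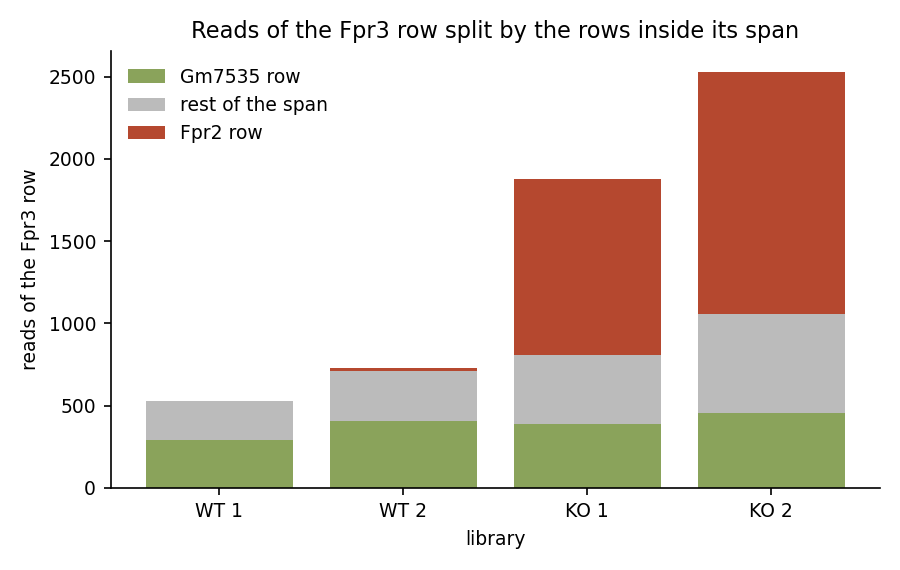
Reads of the Fpr3 row in each library, split into those of the Gm7535 row, those of the Fpr2 row and the rest of the span. The Fpr2 share is 0.756% and 2.48% in WT and 57.0% and 58.3% in KO, while Gm7535 stays between 289 and 455 reads.

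The authors' deposited table of comparisons, which lists 5511 genes chosen by unadjusted p, gives log2 fold changes of 6.32 for Fpr2 (unadjusted p = 0.00158, the authors' value) and 4.18 for Fpr3 (unadjusted p = 0.00961, the authors' value). Fpr1 and Anxa1 are not listed there. In the authors' deposited table of centred log2 values, Fpr2 stood at −3.71 and −2.93 in WT and at 2.93 and 3.07 in KO. Fpr3 stood at −1.80 in both WT libraries and at 1.80 and 2.94 in KO. For Fpr1 the values were −1.59 and −4.19 against 1.59 and 1.63, and for Anxa1 1.64 and 0.53 against −0.53 and −0.87, so all 4 genes had the same sign there as in the reads. The Fpr3 value of that table is larger than the 0.96 fitted to its deposited reads, and the cause was not tested.

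Anxa1, on chromosome 19 from 20373428 to 20390944 (minus strand), was lower in KO. Its reads numbered 897 and 1027 in WT against 470 and 483 in KO. No other row of the table overlaps it. This came to 108 and 49.0 CPM in WT against 23.6 and 18.6 CPM in KO, or 78.7 ± 42.0 against 21.1 ± 3.56 (SD, n = 2 each). Both KO libraries lay below both WT libraries. The mean coverage of the row was 3.84 and 3.52 in WT against 1.79 and 1.81 in KO. On the log2 scale the fold change was −1.89 (SE 0.47), or −1.21 against WT replicate 2 and −2.38 against WT replicate 1. Of the library total the level was 55.6 and 57.5 CPM in WT against 30.1 and 24.1 CPM in KO, and the log2 fold change with library totals was −1.06. Reads of the ligand outnumbered those of Fpr2 by 224-fold and 57.1-fold in WT, and the ratio was 0.439 and 0.327 in KO.

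Fpr1, Fpr2 and Fpr3 lay wholly above WT in KO and Anxa1 wholly below, where 34.3% of all tested genes lay wholly above and 33.3% wholly below. Nothing is read from these counts, since the contrast was used in choosing the genes. Among all tested genes 3.22% passed an adjusted p of 0.05 by edgeR, 1.04% as higher and 2.18% as lower, which is the background for the gene lists that follow. Those lists were also chosen with earlier results of these data known, so their calls and medians are description and not independent support.

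The genes with the profiles most like each member were found by distance between log2 CPM centred over the 4 libraries, among 13007 candidates. Nearest to Fpr2 were Apol6 (distance 0.48), Clec4d (0.49), a C-type lectin receptor of myeloid cells, and Eif2s3y (0.88). Clec4d reads were 2 and 17 in WT against 744 and 1089 in KO, a pattern close to that of Fpr2. That a Y-linked gene was the third nearest shows how little 4 libraries separate one high-in-KO gene from another. Nearest to Fpr1 were Klra2 (0.69), Fabp7 (0.73) and Trem2 (0.79), a lipid-sensing macrophage receptor with 27 and 29 WT reads against 310 and 525 KO reads. Fpr1 itself had 3 and 1 reads in WT, so its profile and these distances are uncertain. Nearest to Anxa1 were Scube1 (0.072), Pcsk4 (0.11) and Porcn (0.13). For the mixed Fpr3 row they were Srxn1 (0.11), Pgam1 (0.12) and Ralgds (0.16).

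Few reads came from the rest of the receptor cluster. Fpr-rs4, Fpr-rs6 and Fpr-rs7 had 0 reads in every library, which allows up to 0.149 to 0.192 CPM of the library total, and Fpr-rs3 had 1 read, in KO replicate 1. Within 100 kb of Fpr1, the hyaluronan synthase gene Has1 was counted once in each WT library and 5 and 3 times in KO. The neighbour Ncrna00085 was counted 65 and 107 times in WT against 132 and 153 in KO. These neighbour counts are not scaled to library size, so no difference between the groups is read from them.

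Among ligands of these receptors and proteases that act on annexin A1, 2 of 6 tested genes rose and 0 fell, with a list median of 1.42 beside 0.010 for all tested genes. Saa3, a serum amyloid A gene expressed by macrophages, was counted 9 and 56 times in WT against 5688 and 8418 in KO (log2 fold change 7.30, SE 0.62, adjusted p = 0.0435 by edgeR). Saa1, an acute-phase serum amyloid A, was counted 1 and 1 times in WT against 33 and 59 in KO, a ratio of 29.4 on summed reads (counting interval 7.9 to 246, adjusted p = 0.0494 by edgeR). Adam17, the sheddase gene, had a value of 1.73 (adjusted p = 0.103), Hebp1, the source of a formyl peptide receptor ligand, 1.12 (adjusted p = 0.132), and App −0.75 (adjusted p = 0.418), all by edgeR. With DESeq2's size factors, with limma-voom and with a crossed replicate block 1 of the 2 calls held, and the list median was 2.37 without WT replicate 2. Camp, which encodes the cathelicidin ligand, and the neutrophil proteases Elane and Ctsg had too few reads to test. Prtn3, a neutrophil protease gene that was tested, had 1 and 12 reads in WT against 16 and 14 in KO (0.71, adjusted p = 0.543 by edgeR).

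Of the other chemoattractant receptors, 2 of 7 tested rose and 0 fell, with a median of 1.90. Ptafr, the receptor for platelet-activating factor, rose to 71.7 and 85.2 CPM in KO, against 3.38 and 6.20 CPM in WT (4.01, SE 0.40, adjusted p = 0.0444 by edgeR). Cmklr1, the chemerin receptor, rose to 56.7 and 60.0 CPM, against 9.18 and 13.3 CPM (2.37, SE 0.27, adjusted p = 0.0475 by edgeR). With a crossed replicate block 1 of these 2 calls held. C5ar1, the complement C5a receptor, had a value of 1.94 (adjusted p = 0.0678 by edgeR), and Ccrl2 had 1.90 (adjusted p = 0.0721 by edgeR). Cxcr2, the neutrophil chemokine receptor, stood at 0.483 and 4.82 CPM in WT against 2.52 and 3.39 CPM in KO, so its groups overlapped.

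For the signalling genes downstream of the receptors, 1 of 22 rose and 0 fell, with 19 values positive and a median of 1.17. The gene that rose was Pik3r6, an adaptor of the phosphoinositide 3-kinase that G protein-coupled receptors activate, which stood at 26.8 and 28.4 CPM in KO against 3.99 and 3.67 CPM in WT (2.85, SE 0.22, adjusted p = 0.0435 by edgeR). The value for the Src-family kinase Fgr was 2.37, and that for the receptor kinase Grk5, which overlaps 5830428H23Rik, was 2.22 (adjusted p = 0.115 and 0.103 by edgeR). Gnai2 and Rac2 were the most abundant of the list, with values of 1.297 and 1.17 (adjusted p = 0.235 and 0.618 by edgeR). Rac2 stood at 13.8 CPM in WT replicate 1 and between 316 and 387 CPM in the other 3 libraries. Against WT replicate 2 alone the median of the list was 0.65, and against WT replicate 1 alone it was 2.23.

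Among genes that make lipoxins and leukotriene B4, 1 of 7 rose and 0 fell, with a median of 2.07. Pla2g4a, the cytosolic phospholipase A2 that frees arachidonic acid, rose to 45.7 and 48.8 CPM in KO, against 5.31 and 6.68 CPM in WT (2.97, SE 0.24, adjusted p = 0.0435 by edgeR). Alox5ap, the helper protein of 5-lipoxygenase, had a value of 2.26 and Alox15 one of 3.85 (adjusted p = 0.0986 and 0.105 by edgeR). Alox12 stood at 50.5 and 6.01 CPM in WT against 1.16 and 0.462 CPM in KO (−5.13, adjusted p = 0.116 by edgeR). Alox5 itself was low throughout, between 0.462 and 2.15 CPM. Against WT replicate 2 alone the list's median came to 1.26, and against WT replicate 1 alone to 3.12.

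No relative of annexin A1 passed the edgeR test. Of 10 tested annexin family and S100 partner genes 0 rose and 0 fell, 1 had an unadjusted p under 0.05, DESeq2 called 1 and limma-voom 0. The median was −0.18, and with library totals alone it turned to 0.31. Anxa6, Anxa2 and Anxa5 were the most abundant, with values of −0.47, −0.51 and −0.43 (adjusted p = 0.328, 0.474 and 0.325 by edgeR). Anxa4 had the smallest p, with a value of 1.08 (SE 0.26, adjusted p = 0.101 by edgeR). S100a11, the binding partner of annexin A1, stood at 41.9 and 38.2 CPM in WT against 49.0 and 48.3 CPM in KO (0.28).

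Glucocorticoid-induced genes were followed because Anxa1 is one of them. Of 10 tested 0 passed in edgeR, 3 had an unadjusted p under 0.05 and a negative value, DESeq2 called 3 lower and limma-voom 0. Klf9 stood at 89.4 and 33.4 CPM in WT against 6.64 and 7.05 CPM in KO (−3.16, adjusted p = 0.0712 by edgeR), while Zbtb16 had −1.95 and Mt2 −2.25. Tsc22d3, which encodes the leucine zipper GILZ, had a value of 0.15, and Nr3c1, the glucocorticoid receptor gene, 0.24. The list median was −0.34, and 0.18 with library totals alone.

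**Figure D3:**
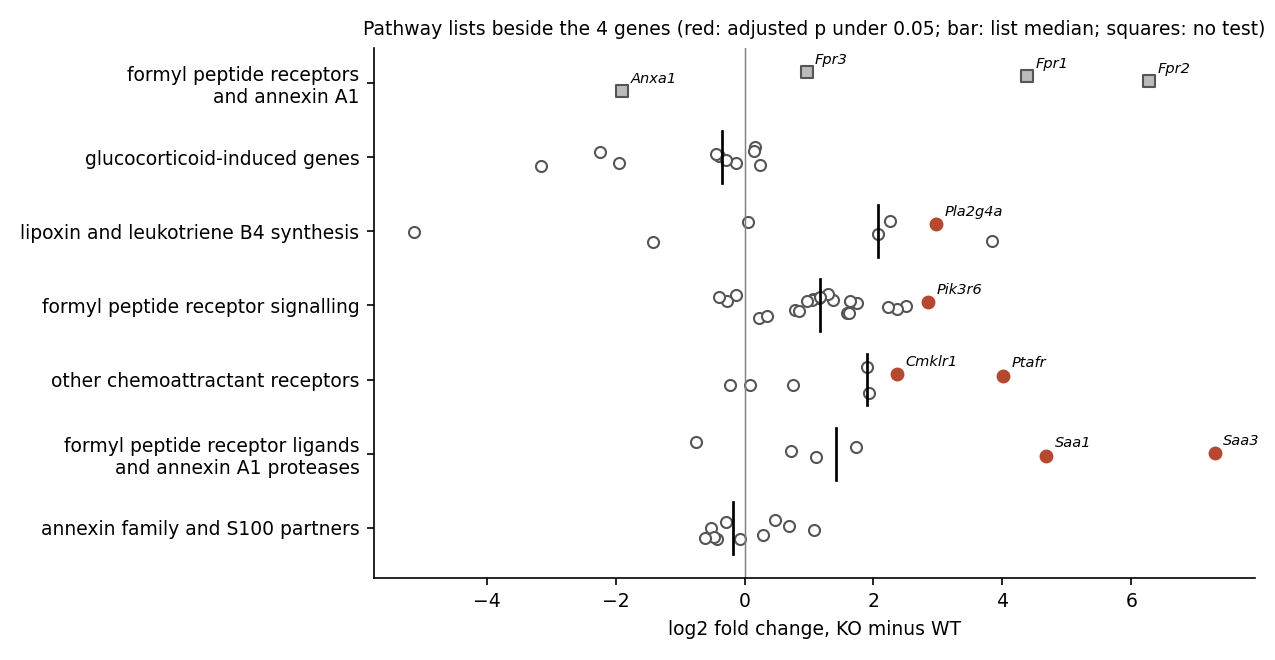
Log2 fold changes, KO minus WT, of the tested genes of 6 pathway and family lists and of the 4 genes (top row, grey squares, no test). Red points passed an adjusted p of 0.05 by edgeR and bars mark list medians: 2 ligand genes, 2 receptors, 1 signalling gene and 1 lipid enzyme gene rose, and no annexin or glucocorticoid-induced gene passed.

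None of these 6 calls held with library totals alone, with a replicate block, or without either KO library, settings under which edgeR passed 0 genes of the table. At an unadjusted p under 0.05 those settings gave between 732 and 1866 higher and between 1318 and 2734 lower genes. Without WT replicate 1, when 20.9% of all genes passed as higher and 22.8% as lower, 4 of 7 ligand and protease genes, 5 of 7 chemoattractant receptors and 14 of 22 signalling genes passed as higher and none as lower. In that setting 4 lipid enzyme genes passed as higher and 2 as lower of 7, 4 annexin and S100 genes as higher and 2 as lower of 11, and 2 glucocorticoid-induced genes as higher and 7 as lower of 10.

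Marker genes of several cell types moved along with the receptors and annexin A1, and their part in the results was not tested. The monocyte and macrophage list summed to 3185 and 3024 CPM of the library total in KO against 180 and 1646 in WT, with 0 of its 15 matched genes at 0 reads in any library. In it, 2 of 15 rose, among them the Fc receptor gene Fcgr1 (2.004, adjusted p = 0.0497 by edgeR), and 0 fell. Under the other scalings on TMM or DESeq2's size factors 1 of the 15 passed, with a crossed replicate block 0, and with DESeq2 10 passed as higher and 1 as lower. The list was mixed: 10 values were positive and 5 negative, and 10 passed as higher and 5 as lower without WT replicate 1. Lyz2, the lysozyme gene, stood at 59.8 and 567 CPM in WT against 131 and 146 CPM in KO (−1.18, adjusted p = 0.519 by edgeR). The scavenger receptor gene Marco stood at 0.483 and 169 CPM in WT against 31.3 and 16.3 CPM in KO, and Siglec1 at 3.14 and 93.7 CPM against 20.9 and 6.47 CPM, so for both genes WT and KO overlapped. The other negative values were those of Mrc1 (−0.97) and Cd163 (−2.58). The neutrophil list summed to 219 and 234 CPM of the library total in KO against 6.88 and 35.7 in WT. Of its 10 tested genes 1 rose, Lcn2 (4.85, adjusted p = 0.0435 by edgeR), and 0 fell. Ltf, the lactoferrin gene of neutrophil granules, was the 1 tested gene with a negative value, at 4.59 and 7.82 CPM in WT against 0.755 and 0.809 CPM in KO (−2.99, adjusted p = 0.056 by edgeR), and 5 genes passed as higher and 1 as lower without WT replicate 1. Lcn2 and Csf3r made up most of that sum in KO, at 118 and 124 CPM and at 74.8 and 79.8 CPM of the library total. Mmp9 had 7 and 77 reads in WT against 148 and 167 in KO (1.55, adjusted p = 0.261 by edgeR). S100a8 had 0 and 24 against 76 and 110 (2.57, adjusted p = 0.238 by edgeR). S100a9 had 0 and 85 against 96 and 167 (1.36, adjusted p = 0.562 by edgeR). The neutrophil-defining genes Ly6g and Retnlg had 0 and 0 reads in WT replicate 1, 2 and 7 in WT replicate 2, 10 and 5 in KO replicate 1, and 20 and 4 in KO replicate 2. In WT replicate 1, 6 of the 14 neutrophil markers were at 0, and in the other libraries none was.

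Annexin A1 is also an epithelial protein, and the list of salivary gland and other epithelium had a median log2 fold change of −7.97. It summed to 14.3 and 51.2 CPM of the library total in KO against 4304 and 18947 in WT, with Dcpp1, which shares reads with Dcpp2, the most abundant member. The gland gene Aqp5 was counted 7387 and 7813 times in WT against 0 and 41 in KO. Both WT libraries thus held gland markers, and their part in the Anxa1 values was not tested. Of 13 tested genes 5 fell and 0 rose, among them Krt18, at 0.503 and 1.35 CPM in KO against 663 and 249 CPM in WT (−8.92, SE 1.006, adjusted p = 0.0468 by edgeR). Epcam stood at 6.99 and 8.75 CPM in KO against 303 and 135 CPM in WT (−4.79, SE 0.56, adjusted p = 0.0475 by edgeR). In KO 3 and 1 of the 14 epithelial markers were at 0 reads. The Anxa1 value of −1.89 lay between those of Krt10 (−1.71, adjusted p = 0.197 by edgeR) and Epcam. Nothing on the source of the Anxa1 reads, 470 and 483 in KO, is read from that. Mast cell markers, another source of annexin A1, were highest in WT replicate 2, at 112 CPM of the library total, and at 17.5 in WT replicate 1 and 42.6 and 45.4 in KO. Of 3 mast cell genes tested 0 passed in edgeR, with 0 at an unadjusted p under 0.05, while of 8 genes DESeq2 called 2 lower and of 3 limma-voom called 0. Kit made up most of the KO sum, at 35.8 and 37.6 CPM of the library total, against 15.5 and 27.1 in WT. Mcpt4, which was not tested, had 7 and 493 reads in WT against 7 and 10 in KO. Cpa3 had 11 and 279 reads against 48 and 86. Against WT replicate 2 alone the list median was −5.71 over 7 genes, and against WT replicate 1 alone it was 0.55 over 3.

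**Figure D4:**
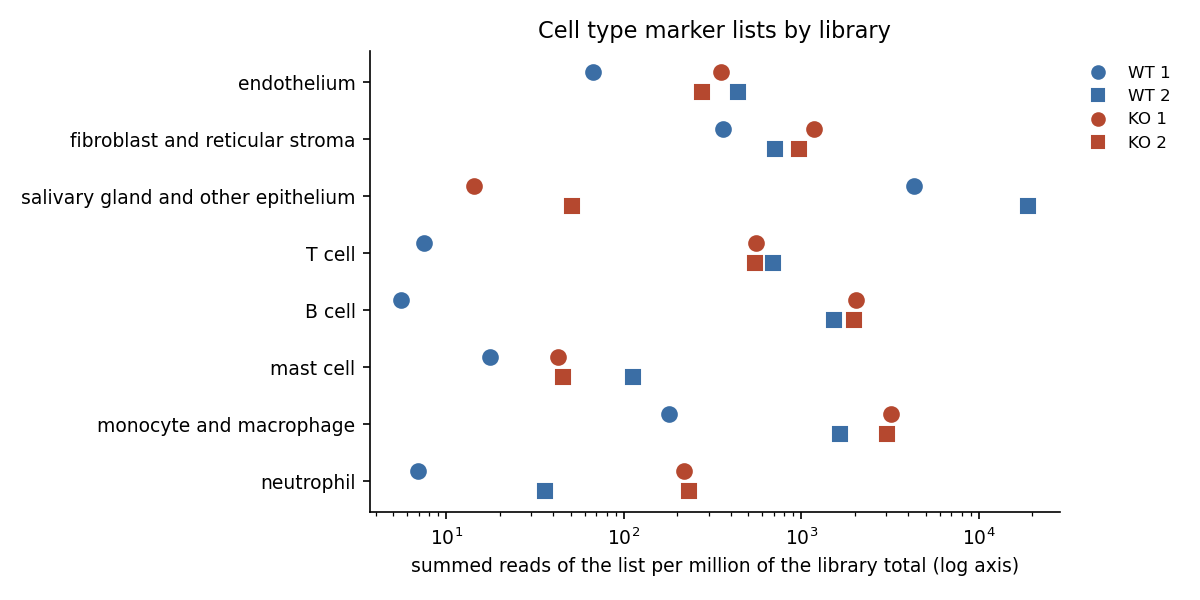
Summed reads of 8 cell type marker lists in each library, as CPM of the library total (log axis). Salivary gland and other epithelial markers are lowest in KO, at 14.3 and 51.2. B and T cell markers are lowest in WT 1, at 5.58 and 7.43, and neutrophil and macrophage markers are highest in KO.

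The log2 fold change of each of the 4 genes kept its sign under all 14 processing alternatives run for it. The groups did not overlap for any of the 4, so leaving out 1 library could hardly change a sign. The genes were also chosen with the contrast known, so nothing is read from the constant sign. Fpr2 ranged from 6.01 to 6.81 and Anxa1 from −2.38 to −1.06. Fpr1 ranged from 3.16 to 5.98 and Fpr3 from 0.57 to 1.74, with the ends set by which WT library was left out or by the scaling.

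**Figure D5:**
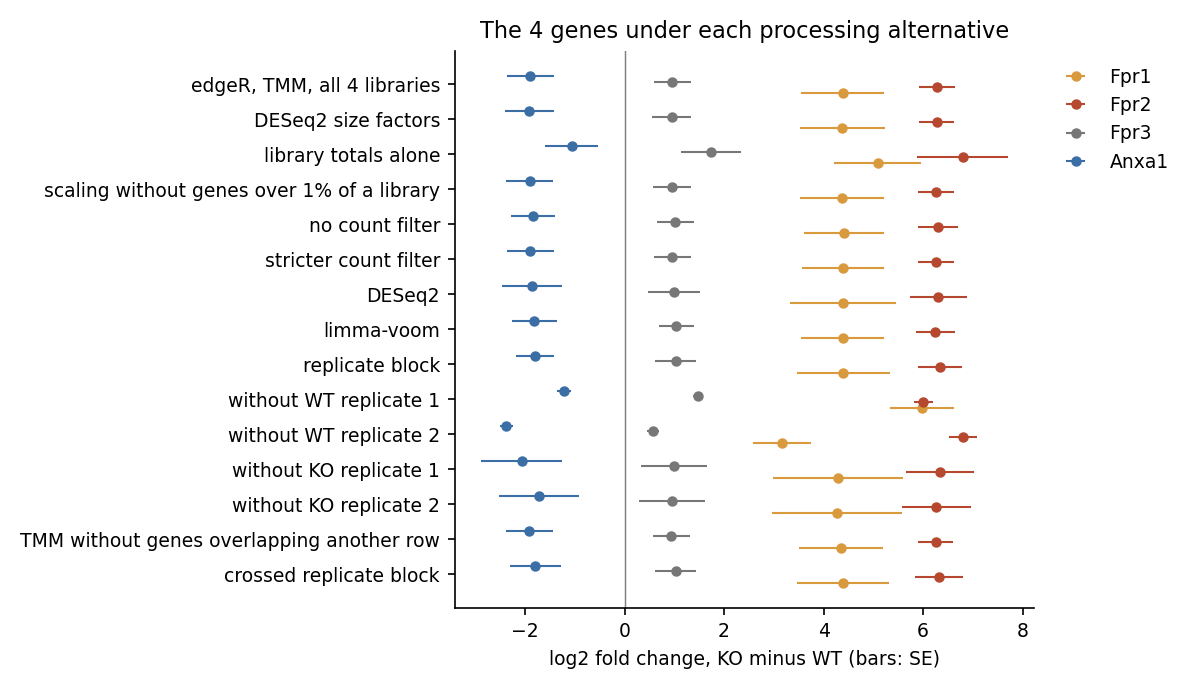
Log2 fold change, KO minus WT, with SE bars, of the 4 genes under the reported fit (top) and each of the 14 alternatives. Points stay on 1 side of 0 for every gene, which leaving out 1 library could hardly change. Fpr1 moves most, between 3.16 without WT replicate 2 and 5.98 without WT replicate 1.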

How the data were processed

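RNA was measured in 2 WT and 2 Becn1-M-KO samples by Ion Torrent sequencing after ribosomal RNA depletion, per the labels' protocols and the series' design text. Raw read counts for each gene span, an average coverage signal and a number of low-coverage bases were deposited, per the file headers. The deposited log2 values are centred on each gene's median, and the authors' comparison table gives an unadjusted p-value, a fold ratio and its log2, per the file headers. The submitters' processing notes name mm10 and DESeq2 1.62. For the aligner, the counting tool and the low-coverage limit, nothing is given in the sources used here.

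The counts went into edgeR 4.0.16 (R 4.3.3), with TMM scaling, the quasi-likelihood test and filterByExpr (minimum count 10, minimum total 15), adjusted by Benjamini-Hochberg over 20695 genes at a threshold of 0.05. SE is the fold change over the root of F. The procedure was tested on simulated data in which libraries of a group shared the same expression profile. The WT libraries here do not, so that test does not bear on how reliable the reported calls are. Log2 CPM for profile distances used a prior count of 2 and candidates with a mean of at least 1, without predicted and antigen receptor genes. Alternatives were DESeq2 1.42.0, limma-voom (limma 3.58.1), other scalings and filters, a replicate block and each library left out. Subtracting nested rows, scaling without overlapping genes and a crossed block were chosen after seeing the data. Members and lists were chosen with earlier results of these data known. Named genes are the members, rows within 100 kb of them, Becn1, up to 4 genes per pathway list by smallest p with the 3 most abundant, the 3 most abundant markers per list and the 3 nearest profiles. Other genes (Cxcr2, Rac2 by library, S100a11, Tsc22d3, Camp, Elane, Ctsg, Prtn3, Alox5, Fcgr1, Epcam, Krt10, Ly6g, Retnlg, S100a8, S100a9, Ltf, Marco, Siglec1, Mrc1, Cd163, Xist and Eif2s3y) were named after their values were seen. Some genes the rule names are not reported. Intervals are at the 95% level. Intervals and the floor of 3 reads cover counting error only.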

Additional observations from a re-analysis of the deposited data

How the results depend on the processing

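With library totals in place of TMM the median log2 fold change of all genes moved from 0.010 to 0.60, a shift of 0.59. On that scale Fpr1 stood at 5.09, Fpr2 at 6.79, Fpr3 at 1.74 and Anxa1 at −1.06, or at 4.49, 6.19, 1.14 and −1.66 relative to the median. Leaving out 1 library at a time gave 3.16 to 5.98 for Fpr1, 6.01 to 6.81 for Fpr2, 0.57 to 1.48 for Fpr3 and −2.38 to −1.21 for Anxa1. The ends came from leaving out either WT library, which leaves 1 control assumed to vary like the KO pair. Joining the Fpr2 and Fpr3 rows gave 1.60, and taking Fpr2 and Gm7535 from the Fpr3 row gave 0.049, against 0.96 as deposited. All other alternatives moved these values by less than the spread between replicates.

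Calls over all genes were less stable: 216 higher and 451 lower with all libraries, 542 and 1188 without a count filter, and 1283 and 2384 with DESeq2. In edgeR they were 0 and 0 with library totals (1472 and 1505 at an unadjusted p under 0.05) and 0 and 0 with the replicate block (1866 and 2734). Leaving out 1 library gave 0 to 6887 higher and 0 to 6922 lower; the zeros were without KO replicate 1 (732 and 1318 unadjusted) and without KO replicate 2 (743 and 1342). Same-numbered libraries share only a number: their deviations correlated at −0.11 over 20695 genes, and the block gave 4.396, 6.34, 1.03 and −1.80 for Fpr1, Fpr2, Fpr3 and Anxa1. A crossed block gave 202 higher and 643 lower calls. Depth limits Fpr1 most, with 4 WT reads in all.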
